A study of Mus musculus with 13 samples.

Results

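Sebaceous gland cells were examined in single-cell libraries of mouse abdominal epidermis. A cell was counted as a sebaceous gland cell when Scd1 and Mgst1 together made up at least 1% of its UMIs (unique molecular identifiers, each a tag of 1 captured RNA molecule). Only cells with 200 or more genes and no more than 10% of UMIs from mitochondrial genes were considered. The rule found 171 of 36927 cells, or 0.463%. Scd1 encodes a stearoyl-CoA desaturase that makes monounsaturated fatty acids, and Mgst1 a glutathione S-transferase of internal membranes. Both genes chose the cells, so their levels are given here only as a description.

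Sebaceous glands open into the upper part of the hair follicle. Their cells mature from a basal layer inwards, fill with lipid droplets and burst, releasing sebum, an oily mix of triglycerides, wax esters and sterol esters. Making sebum takes fatty acid synthesis, elongation and desaturation, sterol synthesis, and enzymes that join fatty acids to glycerol, fatty alcohols or sterols. Androgens and the nuclear receptor PPAR gamma are known to promote the maturation of these cells.

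The 4 libraries came from C57BL/6 mice of the genotype Tbx3creERT2; R26H2B EGFP, in which a tamoxifen-inducible Cre is placed at the Tbx3 gene and EGFP marks recombined cells. All mice received tamoxifen, so no untreated library was among them. The states were non-pregnant (NP, tamoxifen for 3 days), gestation day 16 (dpc16), and days 6 and 40 post partum (dpp6 and dpp40); the last 3 received tamoxifen during pregnancy. Each state has 1 library, and its labels state neither the number nor the age of the animals. Differences between states are therefore differences between single libraries with no replicate check, and every interval below is a 95% interval that covers counting error only. EGFP gave 1 UMI in all sebaceous gland cells, at dpp6, so the reporter does not divide them.

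The libraries held 40450455 to 74804602 UMIs and 6491 to 12853 cells that passed the limits, 36927 in all against the 36912 that the study states. Sebaceous gland cells numbered 29 at NP, 34 at dpc16, 54 at dpp6 and 54 at dpp40. They were deeper than other cells, with a median of 8438, 6130, 8722 and 9524 UMIs per cell in that order, against medians of 4442 to 5618 in other cells. Their median mitochondrial share was 6.84% to 7.43%, against 2.80% to 3.32% in other cells. Of the 748 barcodes above the limit of 10%, 68 met the Scd1 and Mgst1 rule and were left out, 8 at NP, 19 at dpc16, 26 at dpp6 and 15 at dpp40.

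The label was checked against 20 sebaceous markers that the rule did not use. Every sebaceous gland cell held at least 3 UMIs of the set Cidea, Far2, Soat1, Elovl3, Awat1 and Awat2, which was picked from that list after its values were seen. The median was 35 such UMIs at NP, 19 at dpc16, 35 at dpp6 and 38 at dpp40, and the median of all other cells was 0 in every library. The 20 markers together took a median of 1.26%, 0.976%, 1.22% and 1.37% of the UMIs of a cell, against 0.0819% to 0.126% in other cells. Single cells overlapped. The lowest sebaceous gland cell was at 0.642%, 0.574%, 0.660% and 0.832%, and the highest other cell at 1.19%, 2.74%, 1.11% and 3.14%. At dpc16 and dpp40 that other cell was above every sebaceous gland cell, which reached 1.66% and 2.10%. Mogat1 was at 0 in all 4 libraries, and Fabp4 and Prdm1 each gave a level of 2.04 CPM (counts for each 1000000 UMIs, summed over the cells of a library) at dpp6 and 0 elsewhere. Prdm1 has been described as a marker of early sebaceous cells.

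The rule cuts a continuous range. The cells just inside the limit had Scd1 plus Mgst1 at 1.007% (NP), 1.003% (dpc16), 1.023% (dpp6) and 1.005% (dpp40), and those just outside 0.955%, 0.992%, 0.990% and 0.957%. Among cells below the limit, 18, 13, 16 and 7 carried at least 10 UMIs of the 6 genes named above, with median scores of 0.729% to 0.791%. All 171 cells contained both Scd1 and Mgst1 UMIs. Scd1 alone reached the limit in 71 cells, Mgst1 alone in 11, each of them in 10, and only their sum did in 79.

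Markers of mammary, fibroblast, endothelial, muscle and melanocyte cells were low, while keratinocyte genes were not. The mammary list was at 0 in the NP and dpc16 cells, 9 of the 10 fibroblast, endothelial and muscle genes had no UMI in any library, and the summed melanocyte level was 0 to 7.88 CPM. The T cell list summed to 12.9 to 114 CPM, against 160 to 208 in other cells. The Langerhans list summed to 79.4 to 441 CPM, highest at dpc16, against 736 to 1553 in other cells. At least 2 T cell UMIs were found in 3 sebaceous gland cells and at least 2 Langerhans UMIs in 6. No sebaceous gland cell lay above the 99th percentile of UMIs in its library, and 2 lay above 3 times the library median. No doublet caller was run. The list of differentiated keratinocyte genes summed to 14209, 9052, 7187 and 7914 CPM (NP, dpc16, dpp6, dpp40), against 32725 to 41804 in other cells. The basal keratinocyte list summed to 4489, 4787, 3437 and 4004 CPM, against 17050 to 21282. Over 3% of UMIs came from differentiated keratinocyte genes in 2 cells, 1 at NP with 9.49% and 1 at dpc16 with 4.99%, which bears on the keratin values below. No barcode was a sebaceous gland cell in more than 1 library, and 9 of the 171 had a barcode that was also among the cells of another library.

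The share of sebaceous gland cells was lowest at dpc16 and higher in both libraries from after birth. It was 0.447% at NP (29 of 6491 cells, 0.299% to 0.641%, exact Clopper-Pearson), 0.265% at dpc16 (34 of 12853, 0.183% to 0.369%), 0.598% at dpp6 (54 of 9031, 0.450% to 0.779%) and 0.631% at dpp40 (54 of 8552, 0.475% to 0.823%). The dpp6 share was 2.26 times the dpc16 share (1.45 to 3.58) and the dpp40 share 2.39 times (1.53 to 3.78). Against NP, the ratios were 0.592 at dpc16 (0.350 to 1.01), 1.34 at dpp6 (0.837 to 2.18) and 1.41 at dpp40 (0.884 to 2.30), and these 3 intervals include 1. With up to 15% mitochondrial UMIs, a limit chosen after the data were seen, the shares were 0.531%, 0.378%, 0.798% and 0.738%. With at most 5%, only 5, 8, 6 and 8 cells were left, with shares of 0.0891%, 0.0691%, 0.0807% and 0.106%, so that dpp6 lay close to dpc16 and below NP. With a Scd1 and Mgst1 limit of 0.5% the shares were 0.832%, 0.552%, 0.941% and 0.748%, and dpp40 lay below NP. The order of the states other than dpc16 therefore depends on the limits. A share counts cells recovered after trypsin digestion, and recovery from the glands in each state was not tested.

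**Figure D1:**
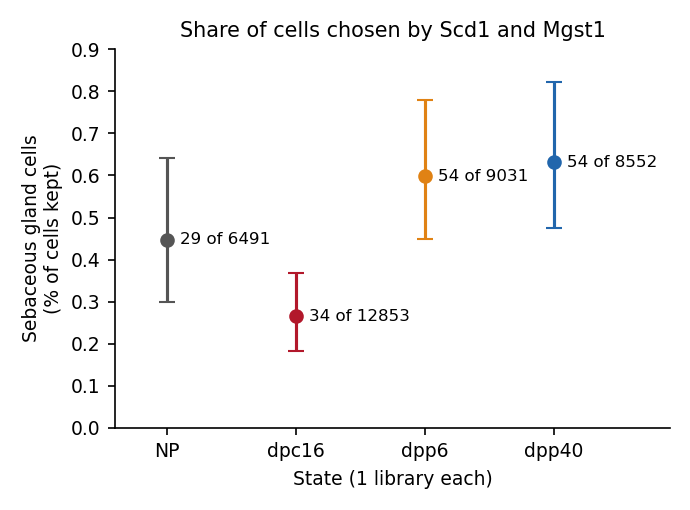
Share of cells that met the Scd1 and Mgst1 rule, in percent of the cells kept, for the 1 library of each state. Points are shares, bars are exact 95% binomial intervals, and the labels give the cells counted; the dpc16 interval (0.183% to 0.369%) lies below those of dpp6 and dpp40.

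The genes with the highest ratios to other cells included Gm13178, Cyp2g1, Awat1 and Fa2h. Since the cells were chosen by Scd1 and Mgst1, the ratios to other cells are a description without a test. In ranking genes by the lowest ratio over the 4 libraries, among 1713 genes with at least 100 UMIs in sebaceous gland cells, 120 were at least 10 times as high as in other cells in every library, 64 at least 20 times and 29 at least 50 times. Scd1 itself was 8876, 8367, 11067 and 12205 CPM (NP, dpc16, dpp6, dpp40, the order used throughout) and Mgst1 7363, 6833, 7437 and 6514 CPM. The lowest ratio was 93.3 for Scd1 and 55.1 for Mgst1.

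Several genes had higher lowest ratios than the genes of the rule. For wax ester synthesis they included Awat1 (lowest ratio 373), an acyltransferase that joins fatty acids to wax alcohols, and Far2 (223), a reductase that makes fatty alcohols. For fatty acids they included Fa2h (319), the fatty acid 2-hydroxylase, Elovl3 (294), an elongase, Acacb (109), an acetyl-CoA carboxylase, and Cd36 (180), a fatty acid uptake receptor. Sterol genes were Soat1 (215), which forms sterol esters, and Hsd3b6 (174), a hydroxysteroid dehydrogenase. Cidea (223) encodes a protein of lipid droplets. Also among the first 20 were Gm13178 (905), a predicted gene, the cytochromes P450 Cyp2g1 (673) and Cyp2f2 (127), the channel gene Panx3 (311), carnosine synthase Carns1 (267), the protease inhibitor Serpina3j (265), Fam57b (190), Clstn3 (159), the carboxylesterase Ces1d (105) and Acoxl (104). Serpina3j and Scd3 belong to families with close copies, and how reads that match several copies were counted is not given in the sources used here.

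**Figure D2:**
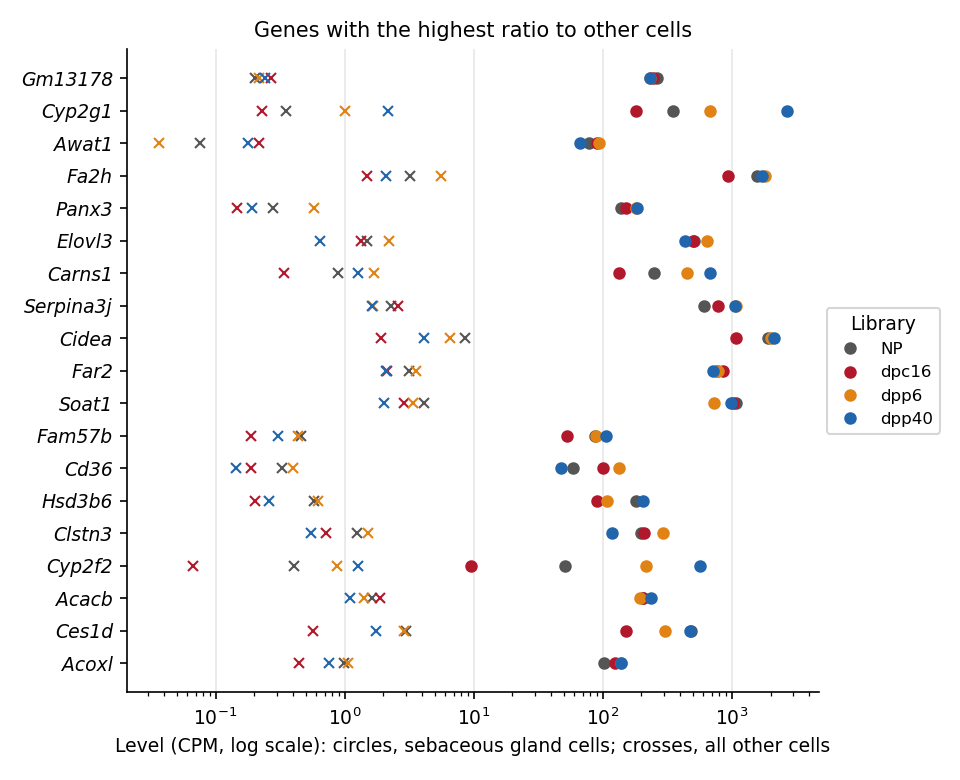
Levels of the genes named here from the first 20 by lowest ratio, in CPM on a log scale. Circles are sebaceous gland cells and crosses all other cells, coloured by library (1 per state); in every row the circles lie to the right of the crosses, with Cyp2f2 at dpc16 the lowest circle at 9.58 CPM.

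Some of these genes can be read beside their promoter. Below are 150 bases before the RefSeq start (build GRCm38.p6) of Soat1, from the list above, and of Acsbg1, an acyl-CoA synthetase gene described below for its low level at dpc16. Both were picked, and the promoter entry of each taken, because they hold a CCAAT box. More of the genes searched held that box than held either other motif. Capitals mark CCAAT on either strand. The Soat1 stretch lies on the minus strand at chr1:156474329-156474478, just before the gene (ENSMUSG00000026600, chr1:156424525-156474331 in the GENCODE vM21 annotation of the same assembly, which places 3 of its bases in the first exon). The Acsbg1 stretch lies on the minus strand at chr9:54661886-54662035, upstream of ENSMUSG00000032281 (chr9:54604877-54661870).
Soat1: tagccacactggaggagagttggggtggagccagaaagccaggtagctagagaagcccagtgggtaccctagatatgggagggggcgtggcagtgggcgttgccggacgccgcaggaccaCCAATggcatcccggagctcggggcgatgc
Acsbg1: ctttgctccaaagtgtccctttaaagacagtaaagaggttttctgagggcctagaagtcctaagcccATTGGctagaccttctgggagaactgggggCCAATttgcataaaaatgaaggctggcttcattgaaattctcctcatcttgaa
Promoters were found in the RefSeq table for 10 of the 20 genes, with 11 entries. CCAAT on either strand within 250 bases before the start stood in 6 of the 11 entries, against 33.8% of all 32851 promoters. These were entries of Acacb, Acoxl, Cd36, Clstn3, Serpina3j and Soat1. The sterol regulatory element written as TCACNCCAC stood in 0 of the 11, against 1.05% of all promoters. The TATA box TATAAA stood in 1 of the 11 (Acacb), against 12.4%. A match describes letters in this window only, and so does the lack of one.

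Between states, under 5% of the genes tested in sebaceous gland cells differed by the rule used here. A gene was counted as higher or lower when the summed levels of 2 libraries differed at least 2-fold and their Poisson intervals did not overlap, among the 1715 genes with at least 100 UMIs. Between dpc16 and NP, 75 genes (4.37%) met this, 29 higher (1.69%) and 46 lower (2.68%). Between dpp6 and NP they were 59 (3.44%), 27 higher (1.57%) and 32 lower (1.87%), and between dpp40 and NP 52 (3.03%), 22 higher (1.28%) and 30 lower (1.75%). All 3 comparisons share the NP library and its 29 cells. By the same rule the same genes in all other cells gave 9 higher and 23 lower, 6 higher and 13 lower, and 5 higher and 9 lower, from far more cells. The median log2 ratio over the 1715 genes in sebaceous gland cells was -0.02, 0.02 and -0.05. Scaling by TMM factors shifted every log2 ratio by 0.04, 0.12 and 0.18 and turned the splits into 33 higher and 40 lower, 35 higher and 22 lower, and 39 higher and 20 lower, so the balance between directions depends on the scaling.

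The sebaceous markers gave counts near the share of all genes. Of the 20 markers other than Scd1 and Mgst1, 13 had enough UMIs, and 0 of 13 met the rule at dpc16 or dpp6 against NP, where 4.37% and 3.44% of all genes did. At dpp40 1 of 13, Scd3, was lower. Their median log2 ratios were -0.18, 0.03 and -0.12, the last 2 of them smaller than the TMM shift, which turns the one at dpp40. At dpc16, 4 of 13 were above 0, and the summed level of the list was 0.795 of that at NP. Fa2h, the fatty acid 2-hydroxylase, was at 1569, 934, 1801 and 1714 CPM, a dpc16 to NP ratio of 0.596 (0.499 to 0.709). Far2 was at 776, 858, 790 and 713 CPM, Soat1 at 1088, 1030, 733 and 989, and Awat1 at 78.8, 91.0, 93.7 and 66.2, though only 6, 7, 10 and 12 cells held Awat1. Plin2, which coats lipid droplets, was at 1159, 1021, 1485 and 1420 CPM. Cidea was lowest at dpc16, with 1920, 1088, 2027 and 2139 CPM, a dpc16 to NP ratio of 0.567 (0.482 to 0.665) that did not reach 2-fold. In other cells, with only 8.60 CPM of Cidea and 3.21 of Fa2h at NP, the dpc16 to NP ratio was 0.221 for Cidea and 0.466 for Fa2h. Pparg itself was at 43.4, 43.1, 61.1 and 40.4 CPM and had too few UMIs for the comparison, against 1.49, 0.540 and 0.983 CPM in other cells at NP, dpc16 and dpp40.

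At dpc16, 2 of 16 tested genes of fatty acid synthesis were lower than at NP, where 2.68% of all tested genes were, and 1 (Elovl5) was higher, where 1.69% were. Elovl6, the elongase of saturated fatty acids with 16 carbons, was at 4328 (4076 to 4592), 1529 (1365 to 1706), 3210 (3054 to 3373) and 5667 (5469 to 5871) CPM. The dpc16 library was the low one, at 0.353 of NP (0.311 to 0.400), and dpp40 the high one. The median cell held 4096 CPM of Elovl6 at NP and 1126 at dpc16, and the ranges over cells overlapped (540 to 12511 and 0 to 6314). Acss2, an acetyl-CoA synthetase, was at 430, 211, 326 and 338 CPM, with a dpc16 ratio of 0.491 (0.338 to 0.703). In other cells the dpc16 to NP ratio was 0.620 for Elovl6 and 0.942 for Acss2.

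The largest differences at dpc16 included further lipid genes. Acsbg1 was at 926 (812 to 1053), 225 (165 to 299), 782 (706 to 865) and 1022 (938 to 1110) CPM, and dpc16 stood apart from the other 3 libraries with a ratio to NP of 0.243 (0.174 to 0.334). Paqr7, a membrane progestin receptor, was at 1407 (1265 to 1561), 369 (291 to 461), 648 (579 to 723) and 1165 (1076 to 1259) CPM, so that dpp6 lay between dpc16 and the others. It was found in 29 of 29, 27 of 34, 51 of 54 and 54 of 54 cells. Angptl4, a secreted inhibitor of lipoprotein lipase, was at 185, 38.3, 85.6 and 178 CPM, and Lpl, the lipoprotein lipase itself, at 225 (170 to 291), 781 (666 to 911), 676 (606 to 753) and 358 (310 to 412). Lpl was thus 3.48 times as high at dpc16 as at NP (2.56 to 4.79) while Angptl4 was at 0.207 of NP (0.0844 to 0.442). In other cells the same dpc16 to NP ratio was 0.700 for Lpl, 0.566 for Angptl4, 0.553 for Acsbg1 and 0.579 for Paqr7.

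The remaining genes named as lower at dpc16 had ratios to NP of 0.174 to 0.276, and of 0.598 (Cd82) to 1.01 (Pafah2) in other cells. Entpd6 was at 138, 24.0, 104 and 125 CPM and Cbr1, a carbonyl reductase, at 229, 47.9, 214 and 221. Ldah, a hydrolase of lipid droplets, was at 193, 43.1, 83.5 and 283 CPM. For Entpd6 and Cbr1 dpc16 was the only low library, while Ldah was also past 2-fold lower at dpp6. Sphk2, Pafah2, Ly6e, Cd82, the epidermal cytochrome P450 Cyp2b19 and Anxa8 made up the 12, of which Ly6e had a ratio of 1.13 with a Scd1 and Mgst1 limit of 2%, and Sphk2 was also lower at dpp40, at 126, 28.8, 83.5 and 40.4 CPM. In the promoter table, with 20 entries for 10 of these 12 genes, TCACNCCAC stood in 1 entry each of Pafah2 and Paqr7, against 1.05% of all promoters. CCAAT stood in 4 of the 20 entries (1 each of Acsbg1, Cd82, Ldah and Sphk2), against 33.8% of all promoters. TATAAA stood in 2 of the 20, both of Ldah, against 12.4%.

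Among genes higher at dpc16, Bex1, a small adaptor protein gene on the X chromosome, differed most. It was at 0, 1279 (1131 to 1442), 189 (153 to 232) and 12.9 (5.17 to 26.5) CPM, and was found in 0 of 29, 31 of 34, 25 of 54 and 6 of 54 cells. In T cells, which serve here as a measure of free RNA and had median depths of 5541 to 6979 UMIs, Bex1 was found in at most 1.31%. The NP count of 0 allows up to 11.8 CPM (3 counts). Against those 3 counts dpc16 was 108 times as high, with a lower limit of 87.4 for the ratio. In other cells Bex1 was higher at dpc16 too, with a ratio to NP of 16.7. Wbp5, a gene of a family related to Bex1, was at 55.2, 1059, 291 and 105 CPM, and its ratio of 19.2 (11.2 to 35.7) at dpc16 stood beside 0.968 in other cells.

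The other genes higher at dpc16 had ratios of 2.61 to 4.66. Oat, the ornithine aminotransferase, was at 1017 (897 to 1149), 2741 (2521 to 2975), 1687 (1574 to 1806) and 1090 (1004 to 1181) CPM, and all 34 dpc16 cells held it. Igfbp4, which binds insulin-like growth factors, was at 272, 891, 440 and 213 CPM, and Moxd1 at 47.3, 220, 102 and 38.6, though its dpc16 ratio was 0.689 with at most 5% mitochondrial UMIs. At dpp40 the interval of the ratio to NP included 1 for both, 0.577 to 1.07 for Igfbp4 and 0.383 to 1.82 for Moxd1. Mfsd2a, a transporter of lysophospholipids, was at 51.2, 158, 216 and 29.4 CPM, so it was higher in both middle libraries. In other cells the dpc16 to NP ratio was 1.96 for Oat, 2.09 for Mfsd2a, 0.915 for Igfbp4 and 0.743 for Moxd1. Tpd52, Dusp1, Eif3e, Tgoln1 and Gde1 completed the 12.

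**Figure D3:**
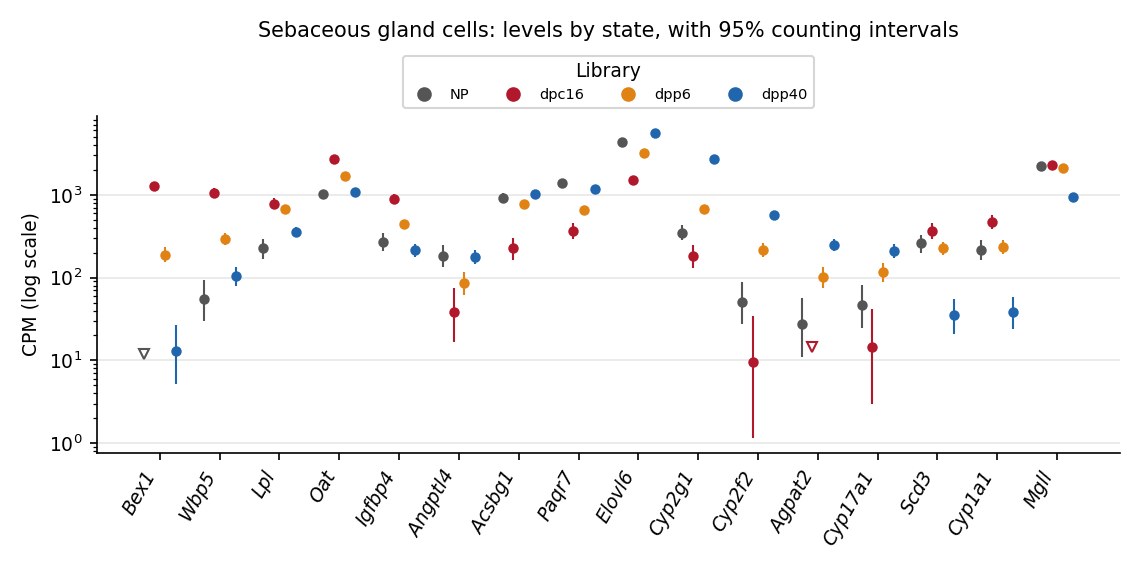
Levels of 16 genes in sebaceous gland cells by state, in CPM on a log scale, summed over the 29, 34, 54 and 54 cells of each library. Bars are 95% Poisson intervals, and an open triangle marks the level that a count of 0 allows (3 counts); dpc16 is the highest library for Bex1, Wbp5, Oat and Igfbp4, its Lpl interval overlaps that of dpp6, and it is the lowest for Angptl4, Acsbg1, Paqr7 and Elovl6.

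Against NP at dpp6, Lpl was 3.01 times as high (2.27 to 4.06) and Mfsd2a 4.21 times (2.36 to 8.17). Bex1 was 16.0 times as high against 3 counts at NP, with a lower limit of 12.8. In other cells the same ratios were 2.16 for Lpl, 1.56 for Mfsd2a and 7.09 for Bex1. Calml3, a calmodulin-like protein of epithelia, was at 59.1, 153, 310 and 283 CPM, past 2-fold above NP in all 3 of the other libraries. Elovl5, an elongase of polyunsaturated fatty acids, was at 248, 546, 519 and 119 CPM, higher than NP in the middle libraries and lower at dpp40. Elovl4, which makes very long chains, was at 473, 829, 1175 and 761 CPM, past 2-fold at dpp6. Only 7, 8, 13 and 19 cells held Elovl4, and 1 cell gave 36.7% of its dpp6 UMIs. Cd36, the uptake receptor, was at 59.1, 101, 134 and 47.8 CPM. Zbtb38, Pigq, Rabggtb, Pdss1 and Tmem70 were the others named as higher at dpp6, with ratios of 2.64 to 4.44; Rabggtb had 0.910 with at most 5% mitochondrial UMIs.

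At dpp40 a group of enzyme genes was highest. Cyp2g1 was at 351 (282 to 432), 182 (129 to 250), 674 (604 to 751) and 2690 (2554 to 2832) CPM, and dpp40 was 7.67 times NP (6.19 to 9.61) and 3.99 times dpp6 (3.54 to 4.51). It was found in 15 of 29, 10 of 34, 34 of 54 and 50 of 54 cells, and after thinning each cell to 1000 UMIs in 17.2%, 14.7%, 38.9% and 70.4%, against at most 2.63% of T cells unthinned. Over single cells the median was 81.6, 0, 271 and 1583 CPM and the highest cell 2687, 1628, 4574 and 10945. In other cells it was only 0.354 CPM at NP and 2.19 CPM at dpp40, a ratio of 6.19 at that trace level. Cyp2f2 followed the same order, with 51.2, 9.58, 216 and 570 CPM and 6, 2, 38 and 50 cells.

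Agpat2 and Cyp17a1 were also highest at dpp40. Agpat2, an acyltransferase on the path to triglycerides and phospholipids, was at 27.6 (11.1 to 56.8), 0, 102 (75.6 to 134) and 250 (210 to 296) CPM, in 7, 0, 23 and 35 cells. The dpc16 count of 0 allows up to 14.4 CPM, and dpp40 was 9.06 times NP (4.28 to 23.0), against 1.02 in other cells. Agpat2 was found in 10.4% of T cells at dpp40 and in 64.8% of sebaceous gland cells. Cyp17a1, a steroid hydroxylase and lyase, was at 47.3, 14.4, 116 and 209 CPM, and its dpp40 ratio was 4.43 (2.44 to 8.82), or 0.826 among the few cells with at most 5% mitochondrial UMIs. Borcs7 was at 86.7, 81.5, 97.8 and 520 CPM, Rgs10 at 106, 125, 232 and 340, and Cipc at 86.7, 67.1, 145 and 241. Hamp2, a hepcidin gene, was at 19.7, 0, 6.11 and 180 CPM, but only 10 of 54 dpp40 cells held it and 1 cell gave 48.0% of its UMIs.

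Other lipid genes were lowest at dpp40. Mgll, the monoacylglycerol lipase, was at 2259 (2077 to 2451), 2319 (2117 to 2535), 2137 (2010 to 2270) and 933 (854 to 1018) CPM. Summed over all cells, dpp40 alone was low, at 0.413 of NP (0.366 to 0.467) and 0.437 of dpp6 (0.392 to 0.486). In the cells with 1% to 2% of UMIs from Scd1 and Mgst1, dpp6 was also below NP, with 1718, 1803, 893 and 600 CPM. In other cells the dpp40 to NP ratio of Mgll was 0.999. Scd3, a second desaturase gene, was at 260 (201 to 331), 369 (291 to 461), 226 (186 to 272) and 34.9 (21.0 to 54.5) CPM, in 10, 19, 23 and 10 cells. Fabp5, a fatty acid binding protein, was at 11099 (10693 to 11517), 11136 (10688 to 11599), 11544 (11245 to 11849) and 6841 (6623 to 7064) CPM, a dpp40 ratio of 0.616 (0.587 to 0.647) that is under 2-fold.

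Cyp1a1, a cytochrome P450 induced through the aryl hydrocarbon receptor, was at 217, 474, 234 and 38.6 CPM, with a dpp40 ratio of 0.178 that was also 0.178 in other cells. Phgdh, the first enzyme of serine synthesis, was at 217, 211, 139 and 51.5 CPM, and Tfrc, the transferrin receptor, at 217, 426, 79.4 and 71.7. Fam132a and Gsn were lower at dpp40 as well, with ratios of 0.308 and 0.300, but Gsn had a ratio of 2.85 with a Scd1 and Mgst1 limit of 2% and 2.35 with Scd1 alone at 1%.

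**Figure D4:**
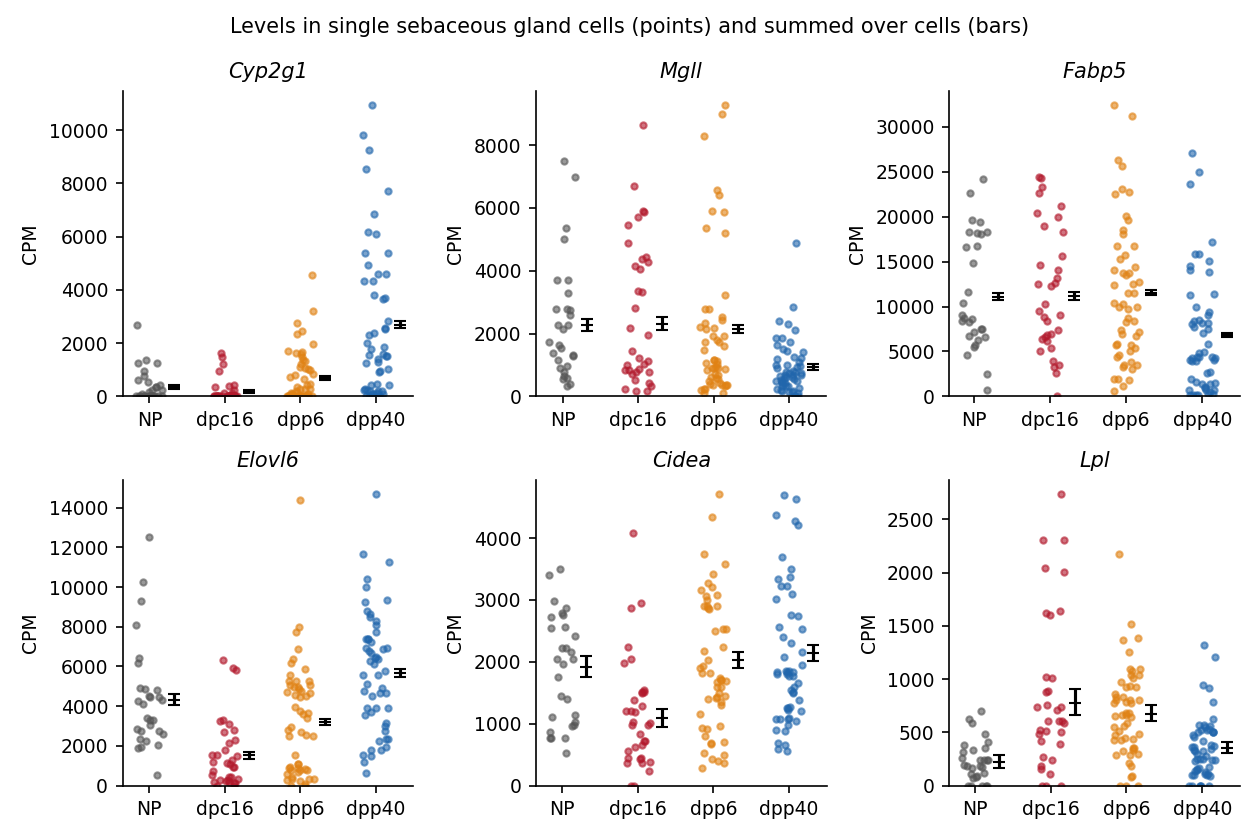
Levels in single sebaceous gland cells for 6 genes, in CPM on a linear axis, by state. Each point is 1 cell, and the black bar beside each group is the level summed over cells with its 95% Poisson interval; Cyp2g1 spreads upwards at dpp40, with 1 cell at 10945 CPM, while Mgll at dpp40 stays at or below 4871 CPM.

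The lipid lists are given by their counts, to be read against the shares of all tested genes, 1.69% higher and 2.68% lower at dpc16, 1.57% and 1.87% at dpp6, and 1.28% and 1.75% at dpp40. Of 16 tested genes of fatty acid synthesis, elongation and desaturation, 1 was higher (Elovl5) and 2 lower (Acss2, Elovl6) at dpc16, 2 higher at dpp6 (Elovl4, Elovl5) and 2 lower at dpp40 (Scd3, Elovl5). Of 20 tested genes of cholesterol synthesis, 1 was lower at dpc16 and 0 met the rule at dpp6 or dpp40. Their median log2 ratio at dpc16 was -0.34, beside -0.02 over all genes, and 7 of 20 were above 0. Of 13 tested genes of wax, triglyceride and sterol ester synthesis and lipid droplets, 0 met the rule at dpc16, Agpat2 was higher at dpp6, and at dpp40 Agpat2 was higher and Mgll lower. Of 11 tested PPAR and fatty acid binding genes, Lpl was higher and Angptl4 lower at dpc16, and Cd36 and Lpl were higher and Angptl4 lower at dpp6.

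Receptors for hormones of pregnancy and lactation differed widely in level. Paqr7, the membrane progestin receptor described above, is not on the receptor list; it was at 1407, 369, 648 and 1165 CPM and lower than NP at dpc16 and dpp6. Prlr, the prolactin receptor, was at 335 (268 to 414), 417 (334 to 514), 295 (249 to 348) and 250 (210 to 296) CPM, against 41.2 to 80.4 in other cells. Each ratio of Prlr to NP was under 2-fold. Ghr, the growth hormone receptor, had 4, 23, 2 and 1 UMIs, or 15.8, 110, 4.07 and 1.84 CPM, which was under the minimum for the comparison. Esr1, an estrogen receptor, was at 23.6, 0, 20.4 and 23.9 CPM, and Pgr and Esr2, the progesterone receptor and the other estrogen receptor, were at 0 in all 4 libraries. Of the 5 tested receptors on the list, 0 met the rule at any state. Of the 5 tested genes on the steroid and retinoid list 0 did; Cyp17a1, described above, is not on that list.

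Stress and glucocorticoid responsive genes differed in level from other cells, some lower and Fkbp5 higher. Mt1, a metallothionein, was at 579, 264, 183 and 535 CPM, against 1983, 1023, 1051 and 2259 in other cells, where dpc16 and dpp6 were also the low libraries. Fkbp5, a chaperone cofactor induced by glucocorticoids, was at 410, 288, 242 and 307 CPM, against 10.8 to 57.6 in other cells. Dusp1, a phosphatase of early stress responses, was at 55.2, 158, 65.2 and 103 CPM, against 530 to 902. Jun was at 74.9, 120, 112 and 197 CPM and Atf3 at 63.1, 81.5, 110 and 175, both higher at dpp40 than at NP. All 3 rose in other cells too, with a dpp40 to NP ratio of 1.56 for Jun and 1.87 for Atf3, and a dpc16 to NP ratio of 1.70 for Dusp1. Of the 14 tested immediate early and heat shock genes, 1 was higher at dpc16 (Dusp1) and 2 at dpp40 (Jun, Atf3), where 1.69% and 1.28% of all tested genes were.

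Keratinocyte genes were among the lowest ratios at dpp6, and 1 NP cell held a large share of their NP UMIs. Of 9 tested differentiation genes, 3 were lower at dpc16, 5 at dpp6 and 5 at dpp40, where 2.68%, 1.87% and 1.75% of all tested genes were. Krt10 was at 1872, 800, 328 and 568 CPM, Krt77 at 780, 259, 106 and 257, and Krtdap at 2121, 637, 306 and 671. A single cell gave 76.2% of the NP UMIs of Krt10, 78.3% of those of Krt77 and 60.8% of those of Krtdap. Without the cell with the most UMIs in each library, the dpp40 to NP ratio became 1.23 for Krt10 and 1.44 for Krt77, turning their direction, and 0.771 for Krtdap. The dpp6 to NP ratio became 0.681 for Krt10, 0.517 for Krt77 and 0.350 for Krtdap, from 0.175, 0.136 and 0.144. Krt10 and Krt77 were then under 2-fold at dpp6. Without the 2 cells with over 3% of UMIs from this list, 73, 44 and 40 of 1688 tested genes were past the rule, with 44, 21 and 21 lower. Krt17 of the follicle was at 595, 206, 194 and 171 CPM, and 1 cell gave 53.0% of its NP UMIs. Krt14 of the basal layer was at 2168, 2099, 1982 and 1907 CPM and Krt5 at 394, 508, 191 and 318. Of 9 tested basal genes, Krt5, Mt2 and Dst were lower at dpp6, and at dpp40 Trp63 was higher and Cxcl14 lower, where 1.87% of all tested genes were lower at dpp6, and 1.28% higher and 1.75% lower at dpp40. Gm10076, a predicted gene, had the lowest dpp6 ratio of all named genes, 0.135, and 0.181 in other cells.

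Genes of cell division were lower than in other cells, the G2 and mitosis genes more so than the S phase genes. The list of G2 and mitosis genes summed to 15.8, 125, 38.7 and 49.6 CPM, against 298 to 451 in other cells. The S phase list took 0.0162%, 0.0244%, 0.0175% and 0.0143% of UMIs, against 0.0236%, 0.0306%, 0.0352% and 0.0330% in other cells. Mki67, a marker of cycling cells, was at 0, 4.79, 2.04 and 0 CPM, against 11.3 to 19.8. Cells of the gland that lie below the limit of the rule are not part of these values.

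Cells of the nearby follicle differed clearly. Krt79, a keratin of the upper follicle and sebaceous duct, was at 1809, 1361, 1512 and 1505 CPM in sebaceous gland cells and at 517 to 956 in other cells. The other cells with at least 2 Krt79 UMIs (1426, 1847, 2097 and 1881 cells) had 4275 to 5363 CPM of Krt17 and 4961 to 5718 of Krt15. In sebaceous gland cells those 2 keratins were at 171 to 595 and 715 to 1289 CPM. Cidea was at 7.46 to 25.7 CPM in the Krt79 cells and Soat1 at 2.18 to 8.10. Cholesterol synthesis genes took 0.961% to 1.37% of UMIs in sebaceous gland cells and 0.0777% to 0.0956% in Krt79 cells. Wax and storage lipid genes took 0.775% to 0.903% and 0.0550% to 0.0634%.

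Sebaceous gland cells also differed among themselves, along the share of Scd1 and Mgst1 that chose them. With 1% to 2% of UMIs from these genes there were 23, 26, 35 and 31 cells, and with 2% to 4% there were 6, 7, 18 and 23; 1 dpc16 and 1 dpp6 cell lay at 4% or above. Cholesterol synthesis genes took 1.25%, 0.773%, 0.818% and 1.02% of UMIs in the lower range and 1.98%, 1.80%, 1.84% and 1.65% in the upper one. Fatty acid synthesis genes other than the rule genes went from 1.46%, 1.04%, 1.12% and 1.27% to 2.25%, 1.70%, 2.19% and 2.14%. The wax and storage lipid list was higher in the upper range in every library too. Ribosomal protein genes were lower, with 26.8%, 29.2%, 29.6% and 31.1% in the lower range and 20.5%, 25.5%, 20.2% and 23.6% in the upper one. All percentages share the UMI total of the cell, so a rise in some genes lowers the share of others.

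Single genes along this range differed in size. Awat1 was at 23.7, 46.8, 12.3 and 9.43 CPM in the lower range and at 349, 181, 228 and 146 in the upper one. Mgll went from 1718, 1803, 893 and 600 to 4912, 4074, 4530 and 1403 CPM, and Fabp5 from 9979, 9971, 7894 and 3812 to 16597, 16114, 18524 and 11108. Krt14 was close to level, with 2178, 2137, 1948 and 1848 CPM below and 2118, 1871, 2031 and 1991 above. The median mitochondrial share was higher in the upper range in every library, 8.77%, 8.36%, 7.68% and 7.08% against 6.78%, 6.91%, 6.80% and 6.14%, and its part in these differences was not tested.

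**Figure D5:**
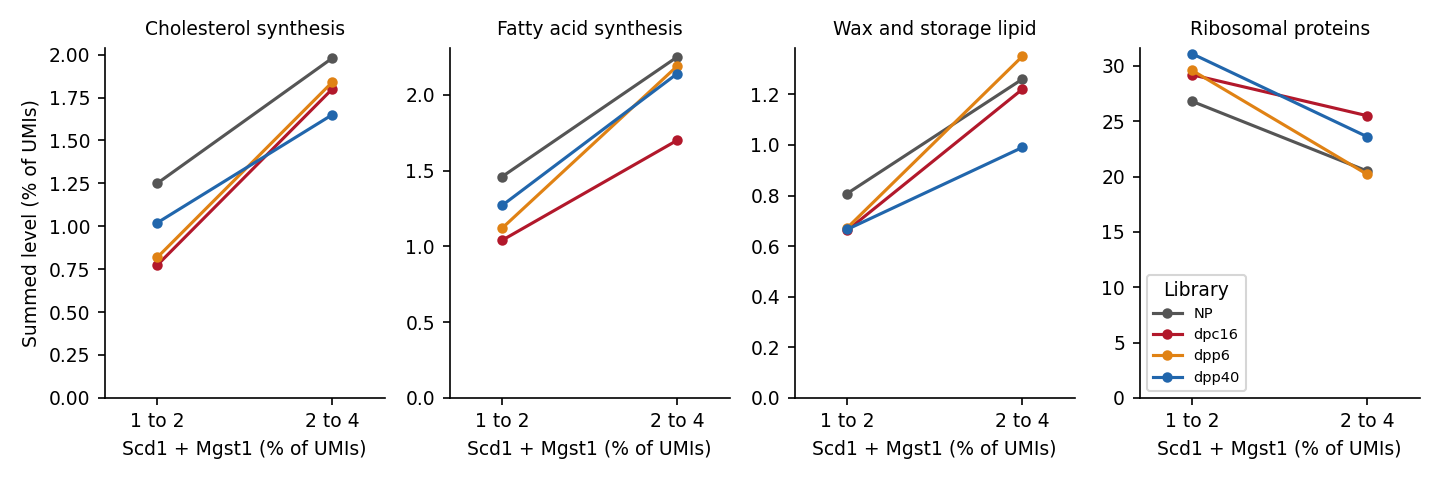
Summed level of 4 gene lists, in percent of UMIs, in cells with 1 to 2% and 2 to 4% of UMIs from Scd1 and Mgst1, for each library. Lines join the 2 groups of cells of 1 library (23 and 6 cells at NP, 26 and 7 at dpc16, 35 and 18 at dpp6, 31 and 23 at dpp40); the 3 lipid lists are higher and ribosomal proteins lower in the upper group of every library.

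The levels by state within these ranges are a description, since the genes of the rule define the ranges. Elovl6 was at 3886, 1153, 2210 and 4273 CPM in the lower range and 6495, 3621, 5280 and 7630 in the upper one, lowest at dpc16 in both. Cyp2g1 was at 233, 111, 354 and 1313 CPM and 931, 362, 1231 and 4629, highest at dpp40 in both. Mgll and Scd3 were lowest at dpp40 in both, Scd3 with 147, 316, 123 and 15.7 CPM and 815, 573, 363 and 62.0. Lpl was higher at dpc16 than at NP in both, with 673 against 199 and 1388 against 349 CPM. The upper range rests on 6 and 7 cells at NP and dpc16.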

How the data were processed

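RNA was measured with 10x Chromium Single Cell v2 libraries of whole abdominal epidermis, per the labels' protocols. The deposited matrices hold raw UMI counts per gene and barcode for 28693 genes, EGFP included. Cell Ranger 2.2.0 and the mouse build mm10 are named in the submitters' processing notes, and the rule that filtered barcodes to cells is not given in the sources used here. The deposited bulk FPKM values of sorted basal cells were not used.

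Counts were summed over the sebaceous gland cells of each library, after the limits of 200 genes and 10% mitochondrial UMIs, and divided by the summed UMIs to give CPM, in Python 3.11.15 with numpy 2.4.6 and scipy 1.17.1. Poisson intervals, Clopper-Pearson intervals for shares and conditional binomial intervals for ratios are at 95% and cover counting error only. With 253706, 208686, 490902 and 544212 UMIs in these cells at NP, dpc16, dpp6 and dpp40, a count of 0 allows up to 11.8, 14.4, 6.11 and 5.51 CPM (3 counts). Genes needed 100 UMIs over the 4 libraries, a 2-fold difference and separate intervals. Since this minimum is a sum, a gene can reach it mainly through a single library where it is high, as Hamp2 did at dpp40. Genes high at dpp6 or dpp40, with more UMIs, reach it more easily than genes high at NP or dpc16. The counts and splits depend on this. The calling was tested on simulated Poisson counts around a shared mean, with no spread between cells or libraries. Calls that come from such spread, as from a single cell with many UMIs, were therefore not covered. TMM factors came from edgeR 4.0.16 in R 4.3.3.

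With 1 library per state no test between states was possible. Positions come from GENCODE vM21 and promoters from RefSeq. A total of 438 of 441 listed genes were in the files. For symbols held by more than 1 gene ID (58), the first was used.

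Genes were named by rule: up to 4 genes per list with the highest summed level and any past the 2-fold rule, the 12 largest differences in each direction per comparison with NP (at least 30 UMIs and 10% of cells in the higher library, without Scd1, Mgst1 and mitochondrial genes), and the 20 genes with the highest lowest ratio to other cells. Pparg, Awat1, Awat2, Mki67, Ghr, Esr1, Esr2, Pgr, Fkbp5, Prdm1, Fabp4 and Mogat1 were named for their known roles after their values were seen. A few genes selected this way are not reported here. The cells, lists and rules were chosen with earlier results of these data known. Alternatives covered the score limit, cell filters, thinning, the UMI minimum, the fold and the scaling.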

Additional observations from a re-analysis of the deposited data

How the results depend on the processing

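No paired analysis was possible because each state has 1 library and no result comes from a test. The dpc16 share was the lowest of the 4 in each of the 9 alternatives that changed a share; the other 2 of 11 kept the same cells. In the order NP, dpc16, dpp6 and dpp40 the shares were 0.832%, 0.552%, 0.941% and 0.748% with a score limit of 0.5%, with dpp40 below NP, 0.0924%, 0.0622%, 0.210% and 0.269% with a limit of 2%, 0.0891%, 0.0691%, 0.0807% and 0.106% with at most 5% mitochondrial UMIs, and 0.154%, 0.124%, 0.288% and 0.339% with Scd1 alone at 1%. With at most 15% mitochondrial UMIs, an alternative added after the data were seen, dpc16 and dpp6 had 0.378% and 0.798%.

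The number of genes tested changes with the setting, so counts of genes past the rule can be compared only beside it. At dpc16, dpp6 and dpp40 against NP they were 118, 101 and 84 of 4556 genes with a minimum of 30 UMIs. With no minimum they were 128, 116 and 104 of 12236. Of the 1715 genes, 134, 119 and 106 passed at 1.5-fold, and 28, 21 and 21 at 3-fold. With a score limit of 2% the counts were 23, 25 and 28 of 660. With 5% mitochondrial UMIs they were 38, 25 and 17 of 398. Fewer cells and genes remain in these 2 settings. At dpc16 and dpp40 they were 115 and 80 of 2498 with a limit of 0.5%. At dpc16 and dpp6 they were 43 and 30 of 867 with Scd1 alone.

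Of 72 pairs of a named gene and a comparison, 61 kept their direction in the 13 of 15 alternatives that changed a ratio, TMM factors included, whose shift is too small to turn a 2-fold ratio. These turned, with the cause not tested. With a score limit of 2% the ratios were 1.13 for Ly6e (dpc16), 0.949 for Bex1 (dpp6, against the 3 counts that a 0 allows), 1.05 and 1.68 for Krt10 (dpp6, dpp40), 1.14 for Krt17 (dpp40) and 2.85 for Gsn (dpp40). With 5% mitochondrial UMIs they were 0.689 for Moxd1 (dpc16), 0.910 for Rabggtb (dpp6), 1.36 for Krt17 (dpp6) and 0.826 for Cyp17a1 (dpp40). With Scd1 alone they were 1.17 for Krt17 (dpp6), 2.35 for Gsn, 1.33 for Krt10 and 1.02 for Krt77 (all dpp40). Without the 2 cells rich in differentiation genes, Krt10 and Krt77 had 1.21 and 1.44 at dpp40, and without the cell with the most UMIs of the gene 1.23 and 1.44; both alternatives were added after the data were seen.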

Other observations

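Some gene groups outside the comparisons also set sebaceous gland cells apart, as a description of cells chosen by Scd1 and Mgst1. Cat, the catalase of peroxisomes, was at 863, 863, 727 and 685 CPM (NP, dpc16, dpp6, dpp40) against 51.2 to 60.8 in other cells. Gpx4, which reduces lipid peroxides, was at 1825, 1749, 2402 and 1694 CPM against 345 to 559. Gsta3, a glutathione S-transferase, was at 102, 57.5, 83.5 and 75.3 CPM against 0.999 to 2.48. Gpx1 was lower than in other cells, with 193, 259, 165 and 158 CPM against 545 to 646. Of the 16 tested genes of glutathione and oxidant defence, 0 met the 2-fold rule at any state against NP.

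Of the lysosomal genes, Ctsd, the protease cathepsin D, was at 1092, 815, 949 and 1007 CPM against 165 to 246 in other cells, and Psap, which gives the saposins, at 954, 973, 909 and 956 against 231 to 264. Ctsb was lower than in other cells, with 39.4, 91.0, 67.2 and 84.5 CPM against 156 to 241. Of the 8 tested lysosomal, nuclease and cell death genes 0 met the rule against NP. The transcription factor genes Cebpa and Cebpb were at 327, 292, 411 and 301 CPM and at 812, 848, 1147 and 812 CPM, against 53.5 to 68.5 and 222 to 360 in other cells.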
